A study of Rattus norvegicus with 15 samples.

Results

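Zbtb7a is a transcriptional repressor of the BTB zinc finger family, also named Lrf, OCZF or Zbtb7, and it was followed here across 3 rat liver tissues. It was selected on its array values in the comparisons of hepatocellular carcinoma with the other tissues, where it was high, so its levels there are a description without a test. The arrays hold 1 probe whose single platform symbol is Zbtb7a, among 3757 probes in all, of which 3440 carry 1 symbol and cover 3400 genes. Every sample was liver tissue of a male rat, Fischer344 by its label (Fischer for control 1), fed for 70 weeks. The 5 control livers were from animals on a basal diet. All others were from animals on a choline-deficient, L-amino acid-defined diet, a feeding model of fatty liver, cirrhosis and liver tumours without a transgene or added carcinogen. Of these, 5 were hepatocellular carcinomas and 5 were cirrhotic, noncancerous liver from around such tumours. The labels do not say which samples share an animal, so spreads and p-values describe these samples. The measure is a ratio to the median of that probe among the 15 arrays, so it gives no absolute level and cannot show that a transcript is absent. On the number of values at the lower limit of 0.01, control 1 (229 values) and noncancerous 1 (209) stood apart from the other arrays (0 to 76).

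The Zbtb7a protein pairs with itself through its BTB domain, which also recruits corepressor complexes with histone deacetylases, while its zinc fingers bind GC-rich DNA. It is known for silencing the ARF product of Cdkn2a, fetal globin genes and genes of glycolysis, and for roles in B cell, red cell and osteoclast development. It has been described as an oncogene in some tumours and as a tumour suppressor in others, and human liver cancer is among the tumours in which it has been studied.

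The 3 promoters printed here belong to the gene itself, to the gene whose values were most like it (Fgg), and to the gene reported as its target that separated carcinoma from cirrhotic liver (Pkm). Each is the 250 bases before the gene's start in a RefSeq table of the build GRCr8, written on the gene's strand. Capitals mark GACCC or its reverse complement GGGTC, the core to which Zbtb7a is reported to bind.
Zbtb7a: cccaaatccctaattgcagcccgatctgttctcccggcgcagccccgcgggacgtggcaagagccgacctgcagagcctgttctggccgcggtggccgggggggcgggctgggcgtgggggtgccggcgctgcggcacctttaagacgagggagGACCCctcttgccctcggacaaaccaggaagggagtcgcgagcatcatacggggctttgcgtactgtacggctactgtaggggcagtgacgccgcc
Fgg: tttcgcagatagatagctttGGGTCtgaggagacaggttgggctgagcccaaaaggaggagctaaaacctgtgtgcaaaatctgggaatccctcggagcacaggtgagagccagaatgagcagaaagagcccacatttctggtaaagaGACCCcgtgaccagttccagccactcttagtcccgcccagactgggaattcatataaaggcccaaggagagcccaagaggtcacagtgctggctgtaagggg
Pkm: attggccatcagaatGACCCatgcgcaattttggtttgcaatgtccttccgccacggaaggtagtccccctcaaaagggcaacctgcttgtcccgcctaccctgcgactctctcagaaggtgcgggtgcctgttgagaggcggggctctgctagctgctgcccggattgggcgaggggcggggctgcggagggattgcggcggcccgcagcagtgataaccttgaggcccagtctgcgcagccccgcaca
The Zbtb7a stretch lies at chr7:9227253-9227502 on the minus strand, that of Fgg at chr2:170652833-170653082 on the plus strand and that of Pkm at chr8:68953385-68953634 on the plus strand. The core occurs 1 time in the Zbtb7a stretch, 2 times in that of Fgg and 1 time in that of Pkm, and 37.7% of the 33469 promoters in the table hold it on either strand. The GC box GGGCGG, or its reverse complement CCGCCC, which shares no full core with it, occurs 1 time in each of the 3 stretches, and 30.5% of promoters hold it. The Zbtb7a stretch has 68.0% G and C, more than 89.1% of promoters. These matches are letters in a window, and the arrays did not measure binding.

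Zbtb7a was high in all 5 carcinomas and in 1 cirrhotic liver, and low in the other 9 samples. In control liver the deposited ratio was 0.742, 1, 0.497, 0.863 and 0.296 in replicates 1 to 5. In noncancerous cirrhotic liver it was 1.17, 0.441, 0.177, 0.358 and 11.9. In hepatocellular carcinoma it was 17.0, 22.7, 7.21, 3.22 and 5.14. Every carcinoma lay above every control, and the lowest carcinoma was 2.75 times the highest of the other samples once noncancerous 5 was set aside. Noncancerous 5 lay within the carcinoma range, above 3 of the 5 tumours. The tumours themselves spanned 7.06-fold.

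**Figure D1:**
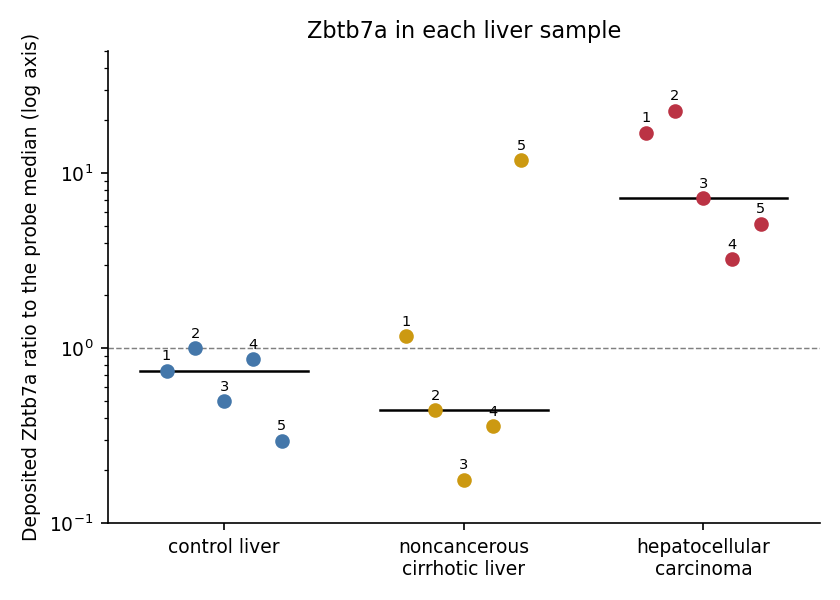
Deposited Zbtb7a ratio to the probe's own median (vertical log axis) in each of 15 samples by tissue; points are samples with their replicate number, bars are group medians and the dashed line is a ratio of 1. All 5 carcinomas lie at 3.22 or above, the controls at 1 or below, and noncancerous 5 at 11.9 stands among the carcinomas.

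Ranked within its own array, Zbtb7a had the highest ratio of all 3757 probes in carcinoma 2 and also in noncancerous 5. It ranked 6 in carcinoma 3, 9 in carcinoma 1, 130 in carcinoma 4 and 159 in carcinoma 5. In the other 9 samples its rank ran from 1571 in noncancerous 1 to 3709 in noncancerous 3. Quantile normalization gives equal ranks equal values, so carcinoma 2 and noncancerous 5 both became 4.41 on the normalized log2 scale although their deposited ratios differed.

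On that scale Zbtb7a was -0.40, -0.02, -1.13, -0.31 and -1.32 in the 5 controls, with a mean of -0.64 ± 0.56 (SD, n = 5). It was 0.13, -1.14, -3.03, -1.93 and 4.41 in noncancerous liver, with a mean of -0.31 ± 2.88 (SD, n = 5). In carcinoma it was 3.22, 4.41, 3.39, 1.86 and 1.75, with a mean of 2.93 ± 1.12 (SD, n = 5). The carcinoma mean was above the control mean by 3.56, which is 11.8-fold. It was above the noncancerous mean by 3.24, which is 9.42-fold. In tissue RNA, a higher level per cell and a larger share of cells that make the transcript cannot be told apart.

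Complete separation, in which all values of a group lie beyond all of the other, was a property of 40 probes higher in carcinoma than in control liver, 1.06% of those tested, and Zbtb7a was among them. Between carcinoma and noncancerous liver 47 probes (1.25%) separated completely upwards, and Zbtb7a was not among them because of noncancerous 5. Against all 10 other samples together, 4 probes (0.106%) were higher in all 5 carcinomas, and these were Nr0b2, Mdh1, Plcg1 and Ccnl1, named after their values were seen. None was lower in all 5, and in limma none of the 3757 probes passed an adjusted p of 0.05 in either carcinoma comparison, with 278 and 497 at an unadjusted p under 0.05.

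Noncancerous 5 decided how Zbtb7a separated the tissues. Without it the noncancerous mean fell to -1.49 ± 1.33 (SD, n = 4) and the difference of carcinoma rose to 4.42, which is 21.4-fold. The 5 carcinomas then stood above all 9 other samples by a gap of 1.62 on the log2 scale, between noncancerous 1 at 0.13 and carcinoma 5 at 1.75. Of the 7 probes (0.186%) with such a gap without that sample, Fgg came next with 0.78 and Nr0b2 with 0.20. Zbtb7a was selected as high in carcinoma, and the sample was set aside for its Zbtb7a value, so its first place is a description. The gap between noncancerous 5 and the next cirrhotic sample was 4.28, or 0.57 of the range of its group on the log2 scale, and 0.91 of the range in deposited ratios. With that sample included, the pooled spread of Zbtb7a within groups was 1.81, larger than that of 97.4% of probes (median 0.97), and without it 1.06.

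Noncancerous 5 was above every other cirrhotic sample and at or above the lowest tumour in 17.1% of all probes, Zbtb7a and Fgg among them. Across genes, which are not independent replicates, its log2 ratios correlated at -0.36 with the carcinoma mean and at 0.32 with the mean of the other noncancerous samples. The same values were -0.48 and 0.27 for noncancerous 2 and ran from -0.21 to 0.20 and from -0.19 to 0.15 for noncancerous 1, 3 and 4. Control 5, from the basal diet, had much the same values as noncancerous 5, at -0.37 and 0.35. Controls 1 to 4 ran from -0.04 to 0.11 and from -0.31 to -0.13, so the measure does not mark the tissue. On deviations from the group means, noncancerous 5 correlated at 0.47 with carcinoma 2, the other array on which Zbtb7a ranked first. With the other tumours it correlated at -0.24 to -0.03. Values of that size occurred in other pairs: noncancerous 2 reached 0.46 with carcinoma 4, and noncancerous 4 reached 0.44 with carcinoma 5. The highest with a tumour was 0.39 for noncancerous 1 and 0.12 for noncancerous 3. Noncancerous 5 had 10 values at the lower limit, and its limma array weight of 1.60 was the highest of the 15. The 8 measured hepatocyte markers averaged -0.49 in it, within the control range of -1.75 to 0.14. That was also close to the lowest carcinoma, in a range of -0.47 to 1.62, and the noncancerous range was -2.02 to 1.92. Whether noncancerous 5 held tumour tissue was not tested.

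Noncancerous against control liver was not the contrast on which the gene was selected, although the values of both tissues entered that choice. Zbtb7a differed from control liver there by 0.33 (95% interval -1.94 to 2.59, limma adjusted p = 0.928), with 2 of 5 cirrhotic samples above the highest control and 3 below the control mean. No probe passed in this comparison (0% of 3757), and 362 probes (9.64%) had an unadjusted limma p under 0.05. Without noncancerous 5 the difference turned to -0.85 (-2.33 to 0.62). In the order of tissue medians, carcinoma stood first, then control (-0.40), then cirrhotic liver (-1.14), and the last pair did not differ beyond their spread. With a running median along the probe numbering removed, control (-1.20) and cirrhotic liver (-0.83) changed places.

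The deposited ratios shift in long stretches of neighbouring probe numbers, so Zbtb7a was set beside its neighbours. The running median at its place, taken over 50 probes to either side, was 0.51 ± 0.36 in control, -0.44 ± 0.45 in noncancerous and 0.06 ± 0.57 in carcinoma samples (SD, n = 5 each), so the stretch was not highest in carcinoma. The 20 nearest probes, 10 on each side, had a median difference of -0.30 between carcinoma and control and of 0.47 between carcinoma and noncancerous liver. Of the 20, 0 separated completely upwards between carcinoma and control, where 1.06% of all probes did, and their largest difference was 2.75, that of Madcam1. In 7 of the 20, against 17.1% of all probes, noncancerous 5 was above the other cirrhotic samples and at or above the lowest tumour. In noncancerous 5 the highest of the 20 was 1.99, against 4.41 for Zbtb7a, and in carcinomas 1, 2 and 3 as well 0 of the 20 reached Zbtb7a. In carcinoma 4, by contrast, 5 of the 20 did, and in carcinoma 5 it was 1. Zbtb7a was selected for high values in the tumours and its neighbours were not, so these counts are a description.

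**Figure D2:**
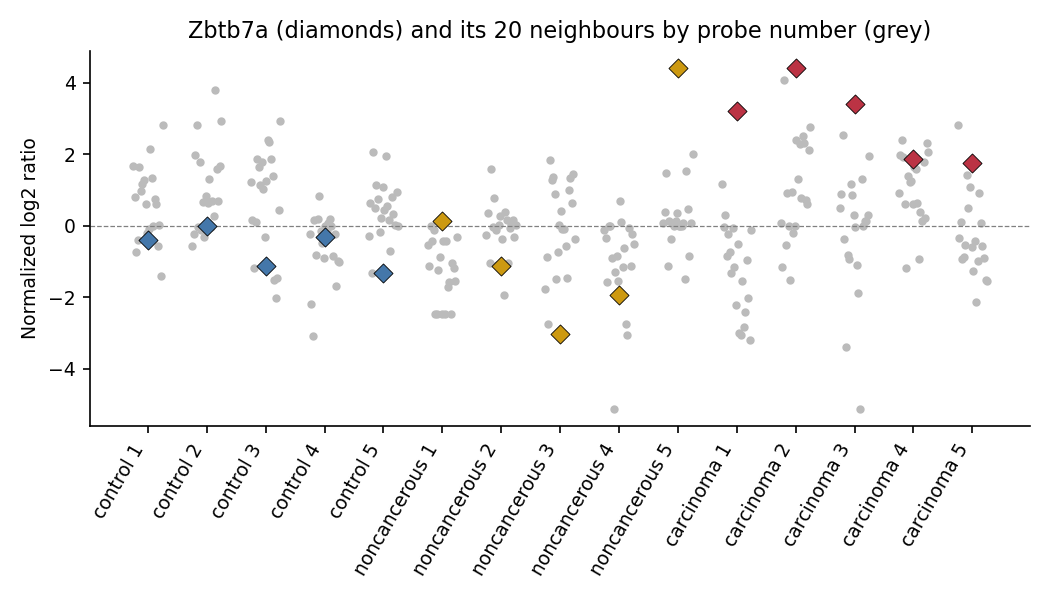
Normalized log2 ratio (vertical axis) of Zbtb7a (diamonds, coloured by tissue) and of the 20 probes nearest in number (grey points) in each of 15 samples (horizontal axis). Zbtb7a lies above all 20 in noncancerous 1 and 5 and in carcinomas 1, 2 and 3, and among them in carcinoma 4.

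With the running median subtracted, carcinoma exceeded control by 4.01 and noncancerous liver by 2.73, and noncancerous liver exceeded control by 1.28 (-0.91 to 3.47, limma adjusted p = 0.996). The mean was then 2.86 ± 1.26 in carcinoma, -1.15 ± 0.78 in control and 0.13 ± 2.86 in noncancerous samples (SD, n = 5 each). The gap between the carcinomas and the 9 other samples without noncancerous 5 narrowed from 1.62 to 0.18. Its edges were carcinoma 4 at 1.03 and noncancerous 1 at 0.85. The number of samples outside carcinoma at or above the lowest tumour stayed at 1 on every scale tried.

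**Figure D3:**
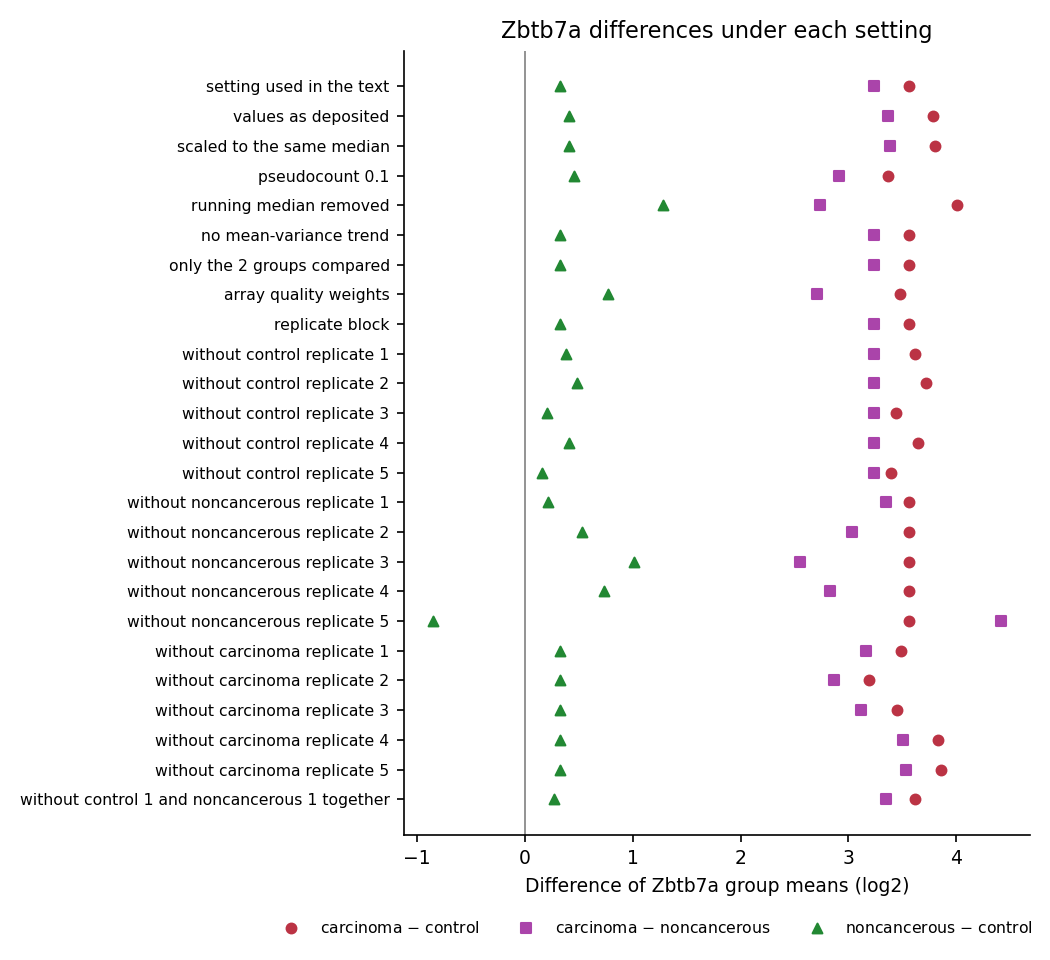
Difference of Zbtb7a group means on the log2 scale (horizontal axis) under the setting of the text and each alternative (vertical axis); circles are carcinoma minus control, squares carcinoma minus noncancerous and triangles noncancerous minus control. Only the triangle without noncancerous replicate 5, at -0.85, lies below 0.

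The genes most like Zbtb7a were found by Pearson's r over the 15 normalized log2 values, which share arrays and tissue groups, so r is a description. Fgg, the gamma chain of fibrinogen and a secreted hepatocyte product, came first with r = 0.88 (Spearman's rho 0.86). Madcam1, an adhesion molecule that guides lymphocytes into gut tissue, followed with 0.80 (0.85). Jup, the junction protein plakoglobin, had 0.79 (0.83), Acsl4, an acyl-CoA synthetase that prefers arachidonic acid, 0.77 (0.78), and Cd86, a costimulatory ligand of antigen-presenting cells, 0.77 (0.73). Without carcinoma 2 and noncancerous 5, the samples farthest from the median of Zbtb7a, r was 0.87, 0.74, 0.82, 0.67 and 0.65 in that order. On deviations from the group means it was 0.78, 0.65, 0.58, 0.72 and 0.63.

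Fgg shared the high value in noncancerous 5. Its log2 ratios were -0.03, -1.23, -0.27, 0.54 and -1.58 in control samples, and -0.63, -1.60, -3.75, -0.94 and 1.48 in noncancerous samples. In carcinoma they were 1.33, 3.79, 2.08, 1.46 and 2.76. As for Zbtb7a, the tumours stood above every control, and noncancerous 5 alone among the cirrhotic samples overlapped them.

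Madcam1 was less clear-cut than Fgg. Its values were -0.72, 1.98, -1.18, -3.09 and -1.32 in control samples and -0.01, -1.05, -2.74, -1.58 and 1.48 in noncancerous samples. In carcinoma they were 0.29, 4.08, 2.54, 2.39 and 0.11. Control 2 and noncancerous 5 overlapped the tumours.

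Without noncancerous 5 the closest genes were Fgg (r = 0.91), Nr0b2 (0.89), Jup (0.86), Plau (0.84) and Madcam1 (0.82). Nr0b2, an orphan nuclear receptor that restrains bile acid production, was -1.32 in noncancerous 5 and so did not share its high value. Plau, the protease urokinase, was 0.07 there. With the running median removed the order was Fgg (0.88), Madcam1 (0.82), Cd86 (0.81), Plg (0.79), the precursor of plasmin, and 1 of the 2 probes of Cish (0.77), a suppressor of cytokine signalling.

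Several of these genes lie close to Zbtb7a in the probe numbering: Madcam1 is 8 numbers away, Fgg 16, Nr0b2 17, Acsl4 26 and Cd86 65. The probe of Cish is 179 away and Plg 185, whereas Jup is 2984 away and Plau 2909. Of the 20 probes with the highest r, 5 lay within 100 numbers of Zbtb7a, a window that holds 196 probes, or 5.22% of the others. The median over all probes for the same count was 3, and 24.3% of probes had at least 5. With the running median removed the count was 6, against a median of 1, and 2.05% of probes had as many. The part of probe position in the likeness was not tested.

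**Figure D4:**
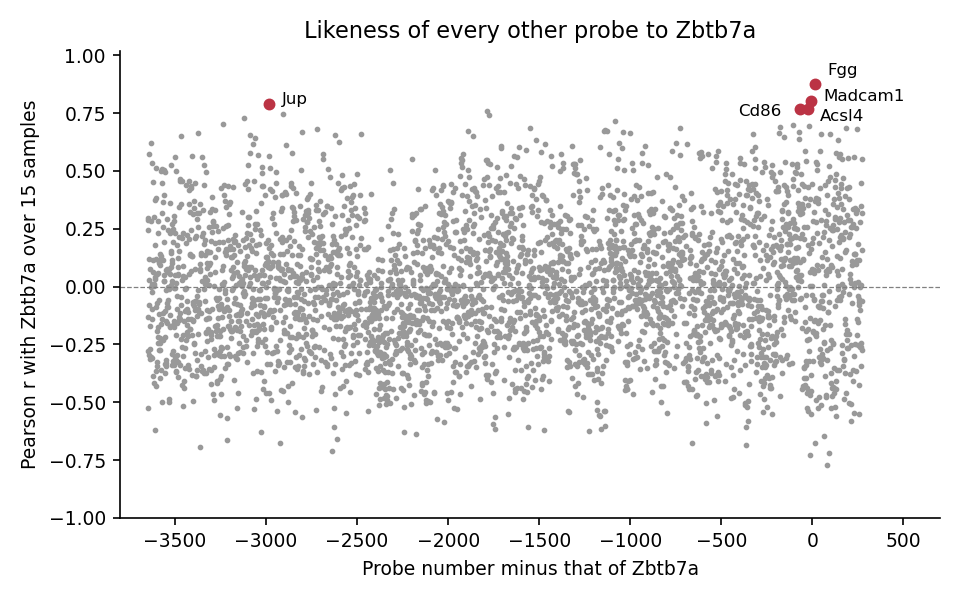
Pearson's r with Zbtb7a over 15 samples (vertical axis) for every other probe, by its probe number minus that of Zbtb7a (horizontal axis); the 5 named genes with the highest r are in red. Fgg, Madcam1, Acsl4 and Cd86 lie within 100 numbers of Zbtb7a, and Jup lies 2984 numbers away.

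Of 8 genes listed as reported targets of the repressor, 6 were measured, and 0 passed an adjusted limma p of 0.05 in either carcinoma comparison. Pkm, the pyruvate kinase of nonhepatic tissue and tumours, was the 1 that separated carcinoma from noncancerous liver completely (1.25% of all probes did so upwards). It was higher in the tumours, by 1.30 (0.38 to 2.21, limma adjusted p = 0.243). Its log2 ratios were -0.03, -0.92, -1.10, -0.18 and -1.32 in noncancerous samples and 0.68, 0.82, 0.37, 0.78 and 0.30 in carcinoma. In control liver they were 0.50, -0.06, 0.57, -0.54 and -0.20, which overlapped the tumours (difference 0.53, -0.38 to 1.45). Noncancerous 5, high in Zbtb7a, had the lowest Pkm of all 15 samples.

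Slc2a3, a high-affinity glucose transporter, was -0.03, -0.93, 0.17, -0.78 and -1.38 in control samples and 1.52, 1.39, 0.21, -0.09 and 0.61 in carcinoma. It differed by 1.32 (-0.0015 to 2.64, limma adjusted p = 0.656), with 4 of 5 tumours above the highest control. In noncancerous liver it was 1.06, -1.86, 2.04, -1.53 and -0.58, a range that covered the tumours (difference 0.90, -0.42 to 2.22). The mean of carcinoma was the highest of the 3 tissues in Slc2a3 as in Pkm, and neither passed the test.

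The cell cycle brakes among the reported targets lay the other way or near 0. Rb1, the retinoblastoma protein, averaged -1.18 ± 0.87 in carcinoma, -0.22 ± 0.92 in control and 0.11 ± 1.60 in noncancerous liver (SD, n = 5 each). It differed by -0.96 (-2.52 to 0.60) from control and by -1.29 (-2.85 to 0.27) from noncancerous liver. In noncancerous 1 the deposited Rb1 ratio was at the lower limit of 0.01. Leaving out single samples moved the difference from noncancerous liver between -1.93 and -0.92. Cdkn1a, an inhibitor of cyclin-dependent kinases, averaged -1.09 ± 1.49 in carcinoma, with differences of -0.78 (-2.25 to 0.69) and -1.36 (-2.83 to 0.11). Tumours and controls overlapped in both genes.

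Cdkn2a, whose ARF product restrains the p53 pathway, differed by 0.11 (-1.37 to 1.59) from control and by -0.42 (-1.90 to 1.06) from noncancerous liver. The latter became 0.68 on the values as deposited, 0.70 with arrays scaled to the same median and 0.40 with the running median removed. In noncancerous 1 the deposited Cdkn2a ratio was at the lower limit of 0.01, against 2.36, 1.38, 1.41 and 1 in noncancerous 2 to 5. The array does not tell its transcripts apart. Bcl2l11, which codes for the death-promoting protein Bim, differed by 0.08 (-1.48 to 1.64) and -0.34 (-1.90 to 1.22). Over the 6 targets, the median difference was 0.09 from control and -0.38 from noncancerous liver, beside 0.00 and -0.02 over all probes. The first median was 0.44 as deposited, 0.46 with scaled medians and 0.27 with the running median removed, and the second was 0.24, 0.26 and 0.05.

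**Figure D5:**
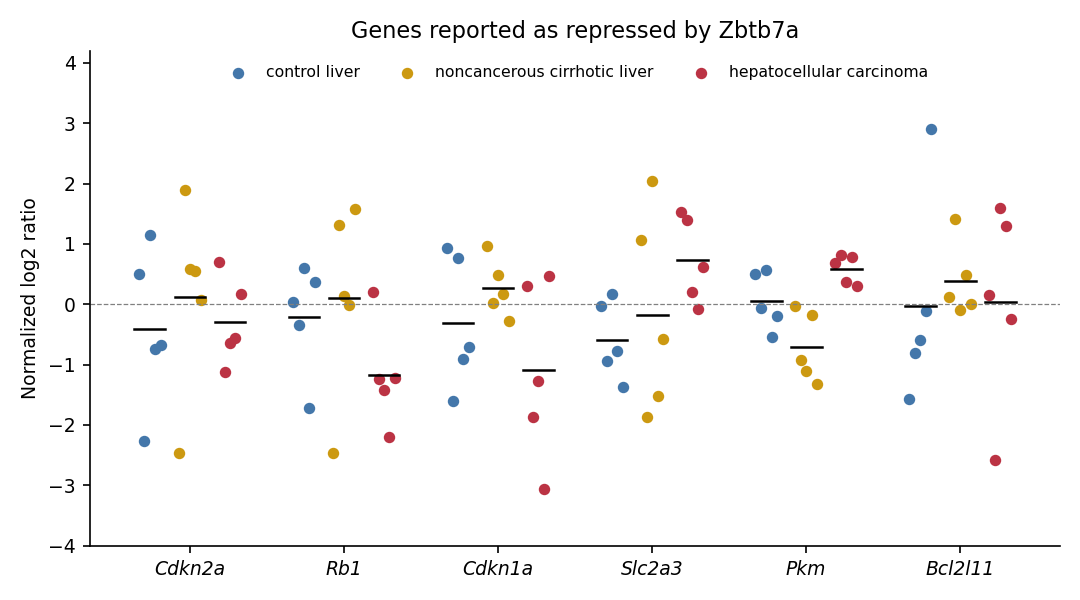
Normalized log2 ratio (vertical axis) of the 6 measured genes reported as repressed by Zbtb7a, in control, noncancerous and carcinoma samples (5 points each, with bars for group means). Pkm is the 1 gene in which the tumours, at 0.30 to 0.82, lie above all noncancerous samples.

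Few partners of the protein were on the arrays. Of 20 corepressor genes 2 were measured. Mta1, a subunit of the NuRD complex, differed by -0.93 (-2.11 to 0.25) between carcinoma and control and by -0.57 (-1.75 to 0.61) between carcinoma and noncancerous liver. Rbbp7, a histone-binding subunit of deacetylase complexes, differed by 0.38 (-0.57 to 1.33) and 0.40 (-0.55 to 1.35). Of 31 other BTB zinc finger genes, 2 were measured. Zbtb10 differed by -0.47 (-1.56 to 0.62) and -0.19 (-1.28 to 0.90), and Zbtb18 by -0.35 (-1.54 to 0.83) and 0.39 (-0.80 to 1.58). None of these 4 genes passed in limma (0% of all probes did) or separated the groups.

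Among wider pathway lists 0 genes passed in limma in either carcinoma comparison. Of 26 genes of the ARF, p53 and retinoblastoma pathway and the cell cycle, 13 were measured. Between carcinoma and noncancerous liver 11 of the 13 lay below 0, with a median of -0.60, and 3 had an unadjusted p under 0.05 (13.2% of all probes did). The median over all probes was -0.02. The list median was -0.49 as deposited, -0.47 with scaled medians and -0.44 with the running median removed. Most of the 13 lie 2885 to 3434 probe numbers from Zbtb7a, so their signs are not 13 independent readings. From control the median was -0.05, which became 0.35 as deposited and 0.37 with scaled medians. Those scalings moved the median of all probes to 0.13 and 0.15.

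Of 25 glycolysis genes 21 were measured, 17 of them above 0 between carcinoma and control with a median of 0.41, and 3 had an unadjusted p under 0.05 (7.40% of all probes did). Ldha, a lactate dehydrogenase subunit named after its values were seen, separated carcinoma from control, as 1.06% of all probes did upwards. Its difference was 1.08 (limma adjusted p = 0.656). Between noncancerous and control liver 17 of the 21 lay above 0 as well, with a median of 0.74. Over all probes the medians against control were 0.00 for carcinoma and 0.02 for noncancerous liver. With the running median removed the glycolysis medians against control were 0.36 for carcinoma and 0.38 for noncancerous liver. Between carcinoma and noncancerous liver 9 of the 21 lay above 0, with a median of -0.13 that turned to 0.01 as deposited, 0.03 with scaled medians and 0.05 with the running median removed. Of 11 genes of the NF-kappaB pathway, with which Zbtb7a is known to interact, 4 were measured, with medians of -0.20 and 0.18 against control and noncancerous liver. The first of these became 0.28 as deposited and 0.30 with scaled medians, and the second 0.71 and 0.73.

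Markers of cell types were read in the same way, because Zbtb7a is also expressed in blood cells. The 8 hepatocyte markers measured of 9 were all above 0 between carcinoma and control, with a median of 0.996. Their mean per sample was -1.75 to 0.14 in control, -2.02 to 1.92 in noncancerous and -0.47 to 1.62 in carcinoma samples. The 2 macrophage markers measured of 7 averaged -2.04 to 0.61, -1.37 to 0.25 and 0.28 to 0.98 in the same order, with median differences of 1.19 between carcinoma and control and 0.94 between carcinoma and noncancerous liver. The 2 erythroid markers of 6 averaged -2.33 to 0.60, -0.45 to 0.78 and -1.21 to 0.91, and the 1 B cell marker of 5, Cd79b, -0.70 to 0.51, -1.11 to 0.56 and -0.16 to 1.13. The 5 T cell markers of 7 averaged -0.91 to 0.44, -0.48 to 1.16 and -1.17 to 0.25. The 6 stellate cell markers of 8 averaged -1.06 to 0.36, -0.39 to -0.03 and -0.34 to 0.30, and the 3 endothelial markers of 6 averaged -0.70 to 0.76, -0.08 to 0.54 and -0.98 to 0.03. The 1 bile duct marker of 5, Epcam, was 0.02 to 0.93, -1.52 to 0.50 and -0.82 to 0.74. Median differences of carcinoma from control and from noncancerous liver were 0.04 and -0.99 for T cell, and -0.43 and -1.09 for endothelial markers. For stellate cell markers they were 0.29 and 0.22, and for erythroid markers 0.48 and -0.14. For Cd79b the differences were 0.32 and 0.36, and for Epcam -0.84 and -0.07. The hepatocyte median against noncancerous liver was 0.53. Control and carcinoma ranges overlapped in each list. Noncancerous and carcinoma ranges of the mean of the 2 macrophage markers did not overlap (0.25 against 0.28), although neither gene alone separated these tissues. Of all single probes 1.25% separated them completely upwards, and the share among means of 2 probes was not computed. In limma 0 markers passed. Their part in the Zbtb7a values was not tested.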

How the data were processed

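Expression was measured on 15 arrays, 5 per tissue, with groups and replicate numbers from the sample titles. The authors deposited a linear ratio per probe. Taken over the 15 arrays, the median was 1 within 1e-06 for each of the 3757 probes, which shows a division by that median. How the arrays were hybridized, scanned and corrected is not given in the sources used here. Between arrays, trimmed means differed by up to 1.49 times.

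Quantile normalization of these ratios was followed by log2. A model with tissue as its single term was fitted to all samples in limma 3.58.1 (R 4.3.3), using lmFit and then eBayes with trend, on 12 residual degrees of freedom. P-values are two-sided and adjusted by Benjamini-Hochberg over 3757 probes per comparison, with a threshold of 0.05. No filter on low values was used, and every gene of the lists had 1 probe. The number of arrays limits the precision. Alternatives were the deposited values, scaling to the same median, a pseudocount of 0.1, subtraction of the running median along the probe numbers, no trend, only the 2 groups compared, array weights, a block for replicate numbers, and fits without each sample or without control 1 and noncancerous 1 together.

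Gene names come from the platform annotation, and 3429 of 3440 single symbols matched a RefSeq table of GRCr8 by gene identifier. Named were Zbtb7a, the 5 genes with the highest r on 3 sets of values, every measured reported target, corepressor and BTB zinc finger gene, and from other lists members past the threshold or separating carcinoma from both tissues, of which there were 0. Ldha, Mdh1, Plcg1, Ccnl1, Cd79b and Epcam were named outside this rule, after their values were seen. The members and lists were chosen with earlier results of these data known.

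Figures were drawn with matplotlib 3.10.9.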

Additional observations from a re-analysis of the deposited data

Results flagged for a closer look

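Of 60 groups of 5 samples examined (20 named genes, 3 tissues), 4 had a sample farther from its neighbour than Dixon's 95% value of 0.71 of the group's range, and chance gives about 1 in 20 such groups. Mta1 was 1.82 in noncancerous 3, against -0.11 to 0.04 in the other cirrhotic samples. Rbbp7 was 0.45 in noncancerous 4, against -0.26 to -0.09. Acsl4 was -1.17 in control 3, against -0.04 to 0.21 in the other controls. Nr0b2 was 1.65 in carcinoma 2, against 0.63 to 0.83 in the other tumours. Zbtb7a in noncancerous 5 did not reach this limit on the log2 scale, because the other 4 cirrhotic samples were spread from -3.03 to 0.13.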

How the results depend on the processing

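Of 24 alternatives, 16 moved the difference of Zbtb7a between carcinoma and either other tissue. Under those it was 3.19 to 4.01 against control and 2.56 to 4.42 against noncancerous liver, values for which the gene was selected. Leaving out each sample in turn gave 3.19 to 3.86 and 2.56 to 4.42. Noncancerous minus control ran from -0.85 without noncancerous 5 to 1.01 without noncancerous 3. With the replicate number as a block it was 0.33 (limma adjusted p = 0.929), and the block changed no call. Same-numbered samples share only a number: of 15 such pairs, 6 had deviations from the group means that correlated above 0.1 (range -0.34 to 0.39). The only count of probes past the adjusted threshold that moved was carcinoma against noncancerous liver, from 0 to 2 without noncancerous 5, and the number of other samples at or above the lowest tumour was then 0 in place of 1. For the other named list genes, 16 of the 320 values that an alternative moved changed direction. The deposited Cdkn2a ratio of noncancerous 1 was at the lower limit of 0.01. Cdkn2a, carcinoma minus noncancerous, turned to 0.68 as deposited, 0.70 with scaled medians and 0.40 with the running median removed. Leaving out single samples moved it from -1.07 to 0.022, and from -0.35 to 0.50 against control. The same ranges were -0.31 to 0.81 and -0.73 to 0.31 for Bcl2l11 against control and noncancerous liver, -0.58 to 0.17 for Zbtb10 against noncancerous liver and -0.65 to 0.036 for Zbtb18 against control. Without control 1 and noncancerous 1 together, an alternative chosen after seeing the data, Bcl2l11 differed from control by -0.31. The cause of these turns was not tested.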
